A study of Mus musculus with 3 samples.

Results

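Chemokines are small signalling proteins that steer leukocytes through receptors on the cell surface. The 10 described here, Cxcl9, Cxcl10, Cxcl12, Cxcl16, Ccl2, Ccl3, Ccl4, Ccl5, Ccl12 and Cx3cl1, were taken by symbol from the 32287 features of mouse retina libraries sequenced cell by cell, and all 10 were detected. For each of them the cells that held it, its level and the share of positive cells were compared between 3 libraries. Among the named classes microglia, a class that included clusters with genes of macrophages, held the highest level of Cxcl9, Cxcl16, Ccl2, Ccl3, Ccl4 and Ccl12 in every library. Among the same classes Ccl5 was highest in T or NK cells, Cxcl12 in endothelial cells, Cx3cl1 in retinal ganglion cells, and Cxcl10 was shared by microglia, astrocytes and Müller glia (MG).

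Chemokines are grouped as CC, CXC or CX3C by the spacing of their leading cysteines. Cxcl9 and Cxcl10 are interferon-induced ligands of Cxcr3, a receptor of activated T cells and NK cells. Ccl2 and Ccl12 bind Ccr2 of monocytes, and Ccl3, Ccl4 and Ccl5 attract T cells and macrophages. Cxcl12 binds Cxcr4 and the scavenging receptor Ackr3, Cxcl16 binds Cxcr6 of T cells, and Cx3cl1 (fractalkine) binds Cx3cr1, which in the retina marks microglia. Cxcl16 and Cx3cl1 are made as membrane proteins and can be shed by the proteases Adam10 and Adam17. MG are the radial glia of the retina, and after retinal injury they too can make chemokines.

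The study compared MG driven into the cell cycle with MG that were not. All mice carried Glast-CreERT2, which recombines in MG and astrocytes, and the tdTomato reporter R26-CAG-LSL-Tdt. They were given tamoxifen at 75 mg/kg from P20 and an adeno-associated virus (AAV) at P28, and retinas were taken at P51. The control received AAV7m8-GFAP-GFP-LacZsh. CCA (cell cycle activator) received AAV7m8-GFAP-cyclin D1-p27sh, which raises cyclin D1 and knocks down p27, mixed 9 to 1 with an indicator virus. CCANT received CCA, then the excitotoxin NMDA at P35 and the histone deacetylase inhibitor TSA at P37. The GFAP promoter of the vectors is an astroglial promoter. Retinas were pooled, 2 to 4 per library, tdTomato+ cells were sorted, and each group was 1 droplet library of 3′ transcript ends. With 1 library per group there was no replicate and no test. Levels are UMIs (unique molecular identifiers, which stand for counted transcripts) of a gene per 1000000 UMIs of all genes (CPM), and each interval is an exact 95% interval that covers counting error only.

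The libraries held 219051219 to 224515457 UMIs, and 9579 control, 10521 CCA and 10890 CCANT cells passed the quality filters. The sort let through other cell types, which are the source of all values outside MG. The series-wide counts table held 3758 control, 3890 CCA and 3278 CCANT cells, of which 3714, 3661 and 2842 were MG, and "MG" below means these cells unless stated. Each cell type name stands for a class of clusters that resembled that type by its markers (a microglia-like class, for example). One exception is MG cluster 9, of 209 cells led by cell cycle genes, in which 12 of the 15 T or NK markers were raised, with a median log2 lift of 2.03 beside 1.80 for the MG markers. Its 2 control cells held 369 UMIs of these T or NK markers, its 167 CCA cells 27 and its 40 CCANT cells 1. In each library all 9 MG, all 14 microglia and all 9 pericyte markers stood above the median class, and 13 to 15 of the 15 T or NK markers did. Microglia numbered 144, 112 and 115 cells (control, CCA, CCANT, the order of all triplets below), of which 7.6%, 13.4% and 7.8% had a tdTomato UMI, and T or NK cells 56, 27 and 18. Any pair of libraries shared at most 38 cell barcodes. Cdkn1b, which encodes p27, stood at 226, 84.6 and 107 CPM in MG. Ccnd1, which encodes cyclin D1, stood at 213, 137 and 129 CPM, lower in both treated libraries and so against the direction that the vector is labelled for. The paper reports from these data that the rise of Ccnd1 in MG was gone by the harvest, while Cdkn1b was still suppressed. Whether reads of the vector copy were counted was not tested. Control cells carried Y-linked transcripts and CCA cells Xist, so sex cannot be told apart from the treatment in that comparison. The CCANT library held cells of both kinds.

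Promoter sequences are shown for Cxcl9, Cxcl10 and Ccl3, members that were past 2-fold in microglia of CCANT and have an entry in the RefSeq promoter table used here, which 6 of the 10 members matched. Each line holds the 250 bases before the annotated start on the gene's own strand, the minus strand of GRCm38.p6 for all of them. Capitals mark matches, searched on both strands, to the interferon response letters GAAA and GAAA with 2 bases between and to the NF-kB letters GGGA and TTCC with 2 bases between.
Cxcl9, chr5:92328080-92328329: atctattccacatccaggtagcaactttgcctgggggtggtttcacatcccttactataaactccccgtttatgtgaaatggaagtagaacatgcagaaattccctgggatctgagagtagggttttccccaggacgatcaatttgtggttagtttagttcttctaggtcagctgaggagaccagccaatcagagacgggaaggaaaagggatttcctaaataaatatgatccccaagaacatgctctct
Cxcl10, chr5:92348890-92349139: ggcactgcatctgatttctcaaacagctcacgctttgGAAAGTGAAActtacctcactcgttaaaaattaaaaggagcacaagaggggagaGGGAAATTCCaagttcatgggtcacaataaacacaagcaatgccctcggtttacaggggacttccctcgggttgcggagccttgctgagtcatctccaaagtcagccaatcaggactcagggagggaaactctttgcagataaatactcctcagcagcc
Ccl3, chr11:83649379-83649628: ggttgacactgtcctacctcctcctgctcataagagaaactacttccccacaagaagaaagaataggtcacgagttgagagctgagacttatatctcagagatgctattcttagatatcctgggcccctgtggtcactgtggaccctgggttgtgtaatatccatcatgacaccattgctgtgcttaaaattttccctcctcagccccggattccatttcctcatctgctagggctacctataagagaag
The Cxcl10 window held both, the interferon response letters 213 to 204 bases and the NF-kB letters 159 to 150 bases before the start. Of all 32851 windows of that length, 2.98% held the former and 1.21% the latter. The windows of Cxcl9 and Ccl3 held neither, which says only that these letters are not there.

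On GRCm38, Cxcl9 (ENSMUSG00000029417) spans chr5:92321347-92328079 and Cxcl10 (ENSMUSG00000034855) chr5:92346638-92348889, both on the minus strand and 18.6 kb apart. Ccl3 (ENSMUSG00000000982, chr11:83647844-83649355, minus strand) and Ccl4 (ENSMUSG00000018930, chr11:83662584-83664683, plus strand) lie 13.2 kb apart. Ccl5 (ENSMUSG00000035042, chr11:83525778-83530518, minus strand) is 117 kb from Ccl3. Ccl2 (ENSMUSG00000035385, chr11:82035571-82037453) and Ccl12 (ENSMUSG00000035352, chr11:82101845-82103400) lie 64.4 kb apart on the plus strand. Cxcl16 (ENSMUSG00000018920, chr11:70453983-70459984) is on the minus strand, and Cxcl12 (ENSMUSG00000061353, chr6:117168535-117181367) and Cx3cl1 (ENSMUSG00000031778, chr8:94772009-94782427) are on the plus strand of other chromosomes. Cxcl10, Cxcl16 and Ccl2 overlap a gene on the other strand (Art3, Zmynd15 and Gm17268). Whether counting used the strand is not given in the sources used here, so reads of these pairs may not be told apart. In microglia Gm17268 stood at 38.2, 133 and 106 CPM beside 133, 180 and 81.8 for Ccl2.

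**Figure D1:**
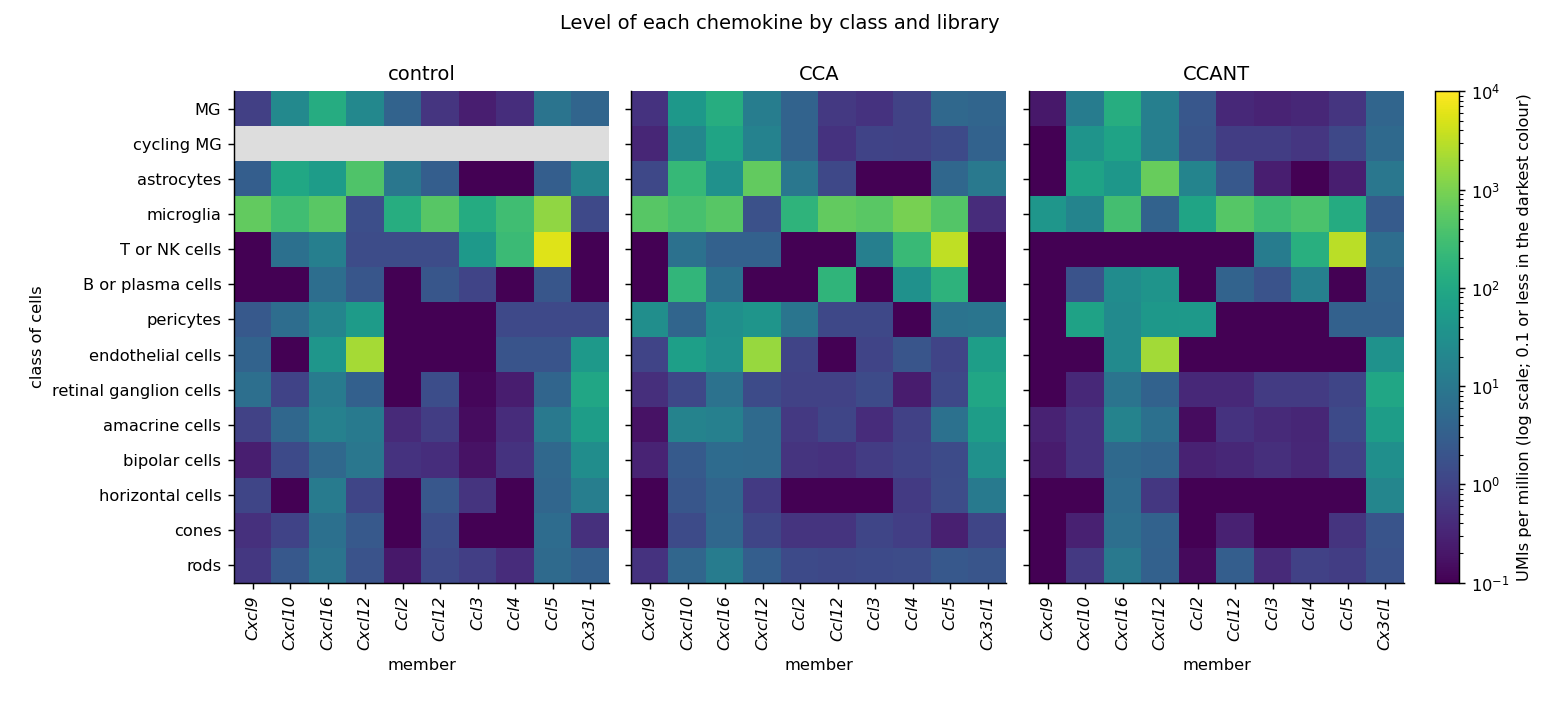
Level of each chemokine (x axis) in each class of cells (y axis) in the control, CCA and CCANT libraries, as CPM on a logarithmic colour scale that starts at 0.1. Grey marks a class without cells. Microglia are bright for 8 of the 10 members in the control, T or NK cells for Ccl5, endothelial cells and astrocytes for Cxcl12, and inner neurons for Cx3cl1.

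Cxcl9, the interferon-induced ligand of Cxcr3, was a transcript of the microglia class. Immune cluster 4 of that class, which also carried genes of macrophages, held 926 of the 2029 Cxcl9 UMIs in the control and 765 of 1180 in CCA. Cluster 9, with rod transcripts, held 566 in the control. Cluster 2, with the most P2ry12, a gene of resting microglia, was among the lowest in the control and CCA. Over the class Cxcl9 stood at 641 CPM (614 to 670) in the control, 509 (480 to 539) in CCA and 42.3 (33.5 to 52.7) in CCANT. The CCANT library was low, with a log2 ratio to the control of -3.92 (-4.27 to -3.60), against -0.33 (-0.44 to -0.23) in CCA. The latter was -1.27 with a gate on markers and -2.29 without the 10 cells with most UMIs. A UMI was present in 47.9%, 30.4% and 5.22% of microglia, and in 29.2%, 21.4% and 3.48% once every cell was thinned to 4000 UMIs. Rods, which should lack chemokine transcripts, gave 0.257%, 0.161% and 0% of thinned cells, and the 0 of 1229 thinned rods of CCANT allows a share of cells with a UMI of up to 0.244%. The median depth was 5072, 4975.5 and 5074 UMIs per rod and 21569, 20734 and 15063 per microglial cell, and 76, 138 and 108 rods under 4000 UMIs were left out of the thinning. Few cells made up the level, since 5, 2 and 1 microglia held 50% of its UMIs. Over the 3 libraries microglia held 61.5% of the 5343 UMIs of filtered cells, and clusters with markers of several classes 29.7%. In MG the levels of the control and CCA overlapped those of rods, and in CCANT 38 of 57 UMIs came from 1 cell.

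Cxcl10, the other ligand of Cxcr3, was found in glia as well. In microglia it stood at 292 CPM (274 to 312) in the control, 354 (330 to 379) in CCA and 18.2 (12.6 to 25.4) in CCANT. Here too the CCANT library stood apart, with a log2 ratio to the control of -4.01 (-4.55 to -3.51), and CCA did not, with 0.28 (0.14 to 0.41). Of microglia 31.2%, 26.8% and 6.96% had a UMI, and 16.7%, 22.3% and 3.48% after thinning, beside 0.899%, 1.85% and 0.325% of rods. In MG it stood at 21.7 CPM (20.7 to 22.6) in the control, 59.9 (58.2 to 61.7) in CCA and 17.7 (16.6 to 18.8) in CCANT. CCA was the high library, with a log2 ratio to the control of 1.47 (1.39 to 1.54), a fold of 2.76, against -0.29 (-0.40 to -0.19) in CCANT. Over MG of all filtered cells, a set from another clustering that has no tdTomato filter and leaves out mixed clusters, the ratio of CCA was 0.89, under 2-fold. Among those of them in the series-wide table, a set added after seeing the data, it was 1.27 (1.19 to 1.35). Only 5.09%, 8.28% and 3.80% of MG had a UMI (1.99%, 3.63% and 1.72% thinned), and 5, 12 and 6 cells held 50% of them. Astrocytes, which the Cre also labels, stood at 93.1, 223 and 79.5 CPM in 15, 33 and 140 cells, and in CCA their log2 ratio to the control was 1.26 (0.83 to 1.71). In CCANT pericytes were within counting error of astrocytes at 77.1 CPM, with 42 of 43 UMIs in 1 cell. By number the MG of all filtered cells, here without cycling clusters, held the most, 52.2% of the 16259 UMIs of filtered cells, with 25.1% in mixed clusters and 10.9% in microglia.

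Ccl3 and Ccl4, CC chemokines made by activated microglia and macrophages, were highest in the microglia of CCA. Ccl3 stood at 119 CPM (107 to 131) in the control, 532 (502 to 562) in CCA and 273 (250 to 298) in CCANT microglia. Both treated libraries were past 2-fold, with log2 ratios to the control of 2.17 (2.00 to 2.34) and 1.20 (1.01 to 1.40), the latter 0.85 without clusters 1 and 4. The share of microglia with a UMI was 40.3%, 76.8% and 61.7%, and 18.8%, 60.7% and 45.2% after thinning, beside 0.385%, 0.403% and 0.244% of rods. Ccl4 stood at 293 CPM (274 to 312) in the control, 940 (901 to 981) in CCA and 387 (360 to 417) in CCANT microglia. Its log2 ratio to the control was 1.68 (1.57 to 1.80) in CCA and, under 2-fold, 0.40 (0.26 to 0.55) in CCANT. Within clusters of microglia the CCANT ratio of Ccl4 was 2.43, 1.99, 0.65, 2.08 and -0.00 (clusters 1, 2, 3, 4 and 9). Clusters 3, 4 and 9 had 4, 8 and 10 CCANT cells. As a mean over the clusters the ratio was 1.10, past 2-fold. The share of microglia with a Ccl4 UMI was 43.8%, 79.5% and 51.3%, and 30.6%, 60.7% and 39.1% after thinning. Of thinned microglia with Ccl3, 74.1%, 76.5% and 48.1% also had Ccl4. Microglia held 75.0% of the 2825 Ccl3 UMIs and 72.1% of the 5313 Ccl4 UMIs of filtered cells. T or NK cells were the other source of Ccl4, at 255, 250 and 142 CPM, and in the control did not differ from microglia beyond counting error. In MG the levels of both genes were within those of rods or below them in every library.

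Among the named classes Ccl5, which cytotoxic T cells and NK cells make, was highest in T or NK cells. It stood at 5611 CPM (5437 to 5789) in the control, 3326 (3114 to 3548) in CCA and 3028 (2765 to 3308) in CCANT, in 56, 27 and 18 cells. The thinned share with a UMI was 58.9%, 51.9% and 55.6%. Nearly all of it lay in immune cluster 7, the cluster with most Nkg7, a gene of cytotoxic granules, at 10463, 7566 and 6334 CPM, beside 308, 25.8 and 452 in the other T or NK cluster. In microglia Ccl5 stood at 1471 CPM (1429 to 1514) in the control, 451 (424 to 479) in CCA and 121 (106 to 138) in CCANT. Both treated libraries were lower than the control, by log2 ratios of -1.71 (-1.81 to -1.61) in CCA and -3.61 (-3.80 to -3.41) in CCANT. Of microglia 78.5%, 59.8% and 33.9% had a UMI, and 60.4%, 42.9% and 17.4% after thinning, beside 2.70%, 0.726% and 0.488% of rods. An unnamed immune cluster with Ccr7 and Stat4, of 19 control, 0 CCA and 3 CCANT cells, stood at 5682 CPM in the control. In MG Ccl5 stood at 13.2, 5.59 and 1.31 CPM, beside 5.36, 2.39 and 0.799 in rods. Of the 1243, 440 and 80 MG UMIs, 477, 248 and 40 came from 1 cell of each library. The control cell carried 12 of the 15 T or NK markers and the cells of CCA and CCANT none. Without these cells the level was 8.11 CPM in the control, 2.44 in CCA and 0.657 in CCANT.

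Ccl2 and Ccl12, ligands of the monocyte receptor Ccr2, had their highest level in microglia. By number the MG of all filtered cells, cycling clusters included, held 515, 410 and 227 Ccl2 UMIs, beside 420, 418 and 153 in microglia. In CCANT pericytes were second by level of Ccl2, at 48.4 CPM. Ccl2 stood at 133 CPM (120 to 146) in the control, 180 (163 to 198) in CCA and 81.8 (69.4 to 95.9) in CCANT microglia, with a UMI in 56.9%, 56.2% and 38.3% of cells and in 25.7%, 26.8% and 20% after thinning. The libraries differed by less than 2-fold, with log2 ratios to the control of 0.44 (0.24 to 0.64) and -0.70 (-0.97 to -0.43). The CCANT ratio turned to 0.40 as a mean over the clusters of microglia, from 1.43 (0.50 to 2.51) in cluster 1 to -1.18 (-1.74 to -0.63) in cluster 2. In MG it stood at 3.23 CPM (2.88 to 3.61) in the control, 6.76 (6.20 to 7.36) in CCA and 2.64 (2.25 to 3.08) in CCANT. CCA was again the high library, with a log2 ratio to the control of 1.07 (0.86 to 1.27), and 3, 4 and 2 cells held 50% of its UMIs. Over MG of all filtered cells both libraries stood at 3.88 CPM, and among those of them in the series-wide table the ratio was 0.66 (0.44 to 0.89). Ccl2 and Cxcl10 met in the same MG: of thinned MG with Cxcl10, 10.8%, 9.02% and 8.16% had Ccl2, beside 0.458%, 0.765% and 0.317% of all MG. Ccl12 stood at 506 CPM (482 to 532) in the control, 635 (603 to 668) in CCA and 486 (455 to 518) in CCANT microglia, which held 78.5% of its 5073 UMIs. The libraries differed by less than 2-fold, with log2 ratios to the control of 0.33 (0.22 to 0.43) and -0.06 (-0.18 to 0.06) and thinned shares of 57.6%, 53.6% and 57.4%. Within clusters of microglia they differed more. The CCANT ratio of Ccl12 was 1.90 (1.48 to 2.34) in cluster 1, -0.72 (-0.96 to -0.49) in cluster 2 and, with 4, 8 and 10 CCANT cells, 1.13, 1.00 and -2.82 in clusters 3, 4 and 9, a mean over clusters of 0.55. The CCA ratio ran from -0.75 in cluster 2 to 1.42 in cluster 3. In MG its level was within that of rods in the control and below it in both treated libraries.

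Cxcl16, a chemokine that is also a scavenger receptor on the cell surface, was the member that most MG carried. It stood at 122 CPM (120 to 124) in the control, 126 (123 to 128) in CCA and 122 (119 to 125) in CCANT MG. These levels were close to each other, with log2 ratios to the control of 0.05 (0.01 to 0.08) and 0.00 (-0.04 to 0.04). A UMI was present in 91.1%, 86.0% and 86.5% of MG, and in 37.5%, 37.8% and 38.7% after thinning, beside 3.72%, 4.92% and 3.99% of rods. It was spread over many cells, with 952, 873 and 690 MG holding 50% of its UMIs. Microglia stood higher, at 535 CPM (510 to 561) in the control, 501 (472 to 530) in CCA and 315 (290 to 341) in CCANT, and the CCANT library was the low one, by a log2 ratio of -0.77 (-0.91 to -0.63), and -1.54 without clusters 1 and 4. By number the non-cycling MG of all filtered cells held the most, 70.6% of the 57353 UMIs of filtered cells. Astrocytes stood at 58.4, 33.3 and 44.6 CPM and pericytes at 18.7, 31.5 and 25.1.

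Cxcl12, which retains cells that carry Cxcr4, was a vascular and astrocytic transcript. Endothelial cells, 25, 47 and 31 in number, stood at 2156 CPM (2030 to 2288) in the control, 1700 (1619 to 1785) in CCA and 2051 (1934 to 2173) in CCANT. Astrocytes followed at 423 CPM (374 to 477) in the control, 629 (577 to 685) in CCA and 678 (653 to 705) in CCANT, and 80.0%, 87.9% and 86.4% of them had a UMI after thinning. The treated libraries were the higher ones in astrocytes, with log2 ratios to the control of 0.57 (0.36 to 0.79) and 0.68 (0.50 to 0.87), but the control had 15 of these cells. Pericytes stood at 54.9 CPM (39.9 to 73.7) in the control, 40.8 (31.6 to 51.9) in CCA and 46.6 (30.4 to 68.3) in CCANT, levels that did not differ beyond counting error. MG stood at 22.1 CPM (21.2 to 23.1) in the control, 13.3 (12.5 to 14.1) in CCA and 14.7 (13.7 to 15.7) in CCANT. Both treated libraries were lower than the control here, by log2 ratios of -0.74 (-0.84 to -0.63) and -0.59 (-0.71 to -0.48), under 2-fold in each. Of MG 31.9%, 17.1% and 22.1% had a UMI, and 7.92%, 4.32% and 6.05% after thinning, beside 0.513%, 0.726% and 1.06% of rods. The non-cycling MG of all filtered cells held 35.3%, endothelial cells 24.9% and astrocytes 21.8% of the 15540 UMIs. Microglia had 5, 4 and 7 UMIs, a level within that of rods.

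Cx3cl1, the neuronal ligand of microglial Cx3cr1, was a transcript of inner neurons. Retinal ganglion cells stood at 92 CPM (85.5 to 98.9) in the control, 90.6 (81.7 to 100) in CCA and 89.4 (78.5 to 101) in CCANT, and amacrine cells at 61.3 CPM (58.0 to 64.8) in the control, 61.6 (58.4 to 64.9) in CCA and 61.1 (57.8 to 64.7) in CCANT. In neither class did the libraries differ beyond counting error. Bipolar cells stood at 28.2, 33.8 and 31.6 CPM and horizontal cells at 13.6, 11.6 and 19.9. The outer neurons were low, with rods at 3.43, 2.12 and 1.86 CPM and cones at 0.496, 1.11 and 2.02. Endothelial cells were a non-neuronal source, at 51.4 CPM (33.6 to 75.3) in the control, 62.4 (47.6 to 80.3) in CCA and 35.7 (21.8 to 55.1) in CCANT. A UMI was present in 92.4%, 94.9% and 86.5% of ganglion cells, at a median of 59123, 51408 and 50474 UMIs per cell, and in 28.5%, 34.6% and 26.9% after thinning, beside 18.2%, 22.3% and 23.1% of amacrine cells and 1.67%, 0.887% and 0.732% of rods. Amacrine cells, the more numerous class, held 39.4% of the 9963 UMIs and ganglion cells 13.7%. MG stood at 4.36, 4.55 and 4.47 CPM, within the level of rods in the control and above it in the treated libraries, and microglia had 4, 1 and 5 UMIs.

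Over all cells of the series-wide table the members fell into widely and rarely detected ones. Most of these cells are MG, but 35, 200 and 422 carried mixed MG and rod transcripts. The shares that follow are without thinning, at a median of 24235.5, 20710.5 and 20721.5 UMIs per cell. Cxcl16 had a UMI in 91.0%, 85.1% and 85.8% of cells, Cxcl12 in 32.0%, 16.6% and 21.5%, Cx3cl1 in 9.69%, 7.84% and 8.24% and Cxcl10 in 5.06%, 8.07% and 3.72%. Ccl5 had a UMI in 8.65%, 2.49% and 1.16% of cells and Ccl2 in 1.52%, 1.80% and 1.04%. The remaining members, Cxcl9, Ccl3, Ccl4 and Ccl12, stood at 0.230 to 0.974 CPM in this table.

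**Figure D2:**
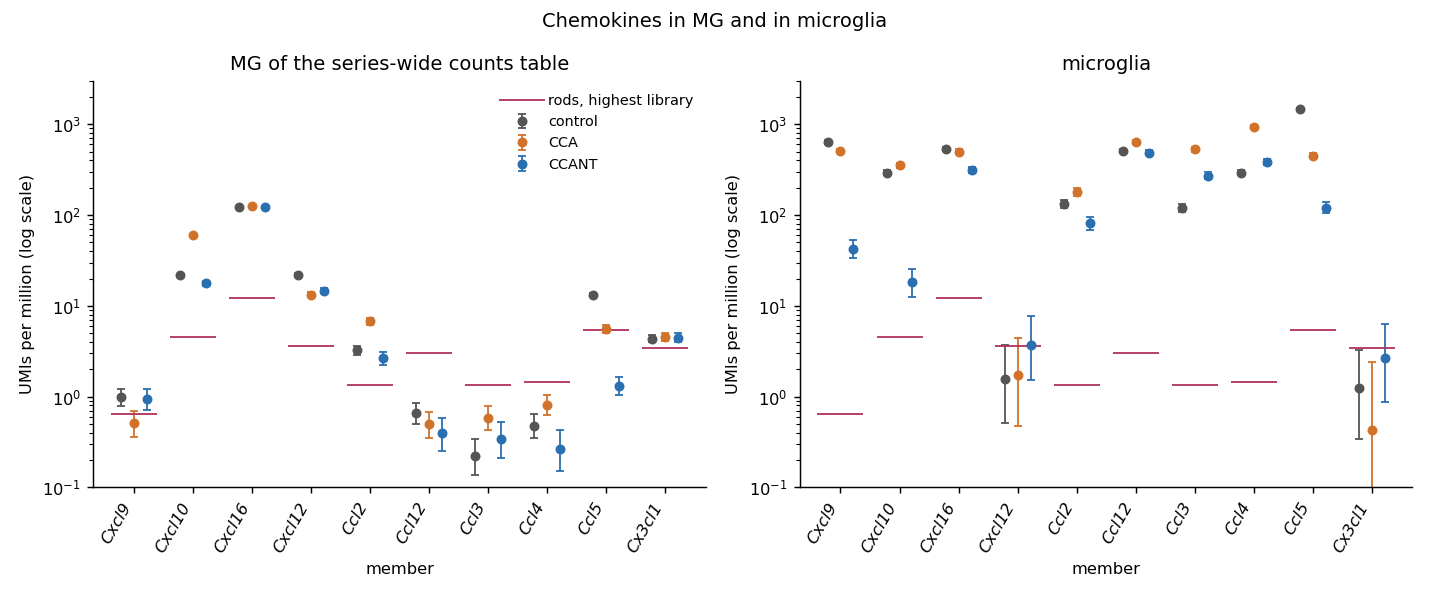
Level of each chemokine in MG (left) and microglia (right) as CPM on a log axis, by library. Points are sums over the cells of a library, bars are exact 95% Poisson intervals, and the red dash is the highest of the 3 rod levels. In microglia Cxcl9, Cxcl10 and Ccl5 are lowest in CCANT and Ccl3 and Ccl4 highest in CCA, and in MG Cxcl10 and Ccl2 are highest in CCA while Cxcl16 is level.

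Counted over the members, with 2-fold as the mark and at least 50 UMIs in both libraries together, CCA MG were past 2-fold in 4 of 10 members, 3 higher (Cxcl10, Ccl2 and Ccl3) and 1 lower (Ccl5). Of 17539 genes 6.43% were past 2-fold, 5.43% higher and 1.00% lower. The median log2 ratio was 0.05 over the members and 0.06 over all genes. CCANT MG were past 2-fold in 1 of 9 members, Ccl5, beside 6.75% of 17205 genes (4.78% higher, 1.97% lower), with medians of -0.29 and 0.03. The log2 ratio of Ccl5 in CCANT was -3.32 (-3.67 to -3.00), but its level there was not above that of rods, and the control cell with T or NK markers is in the ratio. The Ccl3 level of CCA MG lay below that of rods, and the Ccl5 ratio of CCA fell short of 2-fold with the cycling clusters left out, at -0.41, a setting that removes the control cell with 477 UMIs. CCA microglia were past 2-fold in 3 of 8 members, Ccl3 and Ccl4 higher and Ccl5 lower, beside 3.21% of 9481 genes (1.70% higher, 1.51% lower), with medians of 0.30 and 0.00. CCANT microglia were past 2-fold in 4 of 8 members, Ccl3 higher and Cxcl9, Cxcl10 and Ccl5 lower, beside 4.90% of 9367 genes (2.91% higher, 1.99% lower), with medians of -0.73 and 0.05. Cxcl12 and Cx3cl1 had too few UMIs in microglia to be counted. Both comparisons use the same control library. Dissociation and immediate-early genes were also higher in the treated libraries, 4760, 8474 and 8271 CPM summed over 15 genes in MG and 4353, 5302 and 4945 in microglia, and their part in the results was not tested.

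**Figure D3:**
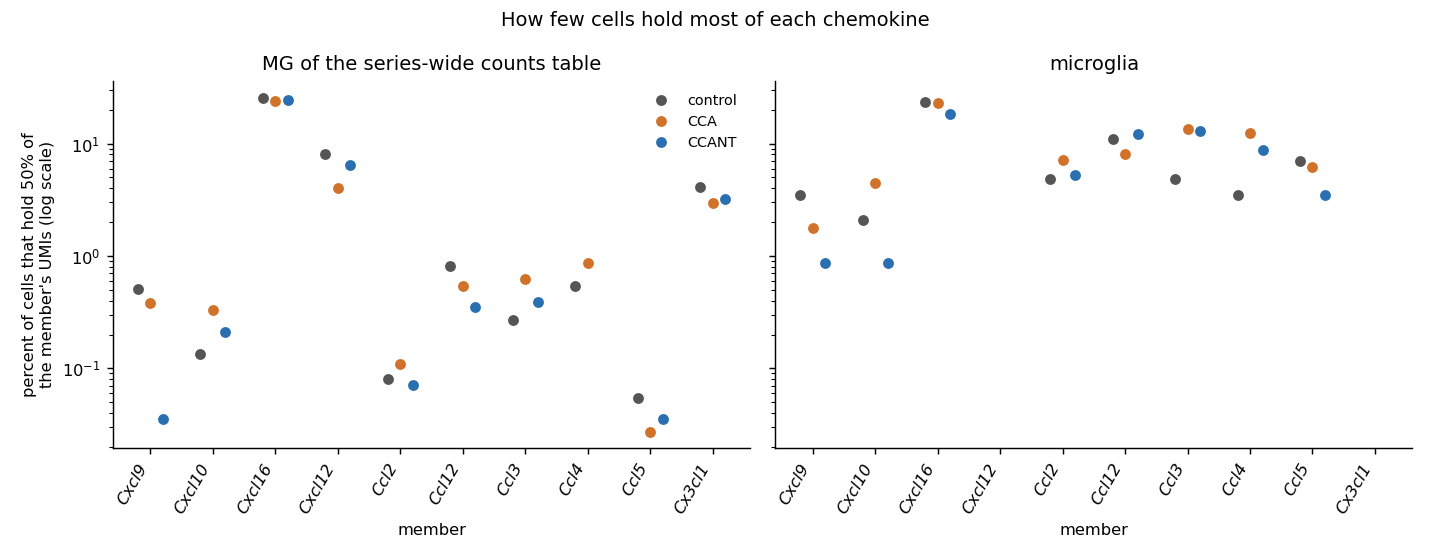
Percent of the cells of a class that together hold 50% of a chemokine's UMIs (log axis), for MG and microglia in each library, where the sum holds at least 20 UMIs. In MG Cxcl16 is spread over 25.6%, 23.8% and 24.3% of cells, whereas 0.135%, 0.328% and 0.211% of cells hold 50% of Cxcl10.

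The MG were clustered without the chemokines, so their levels were not used to form the clusters. Cluster 3, whose leading genes include the interferon-induced Iigp1 and Ifitm3, held 1523, 327 and 56 cells, and cluster 7, with S100a6, Mt2 and Vim, genes of reactive glia, held 47, 191 and 274. Cxcl10 stood at 43.8, 422 and 322 CPM in cluster 3 and at 115, 214 and 42.7 in cluster 7. Within cluster 3 both treated libraries were higher than the control, by log2 ratios of 3.27 (3.18 to 3.35) and 2.88 (2.72 to 3.04), although CCANT was not higher over all MG. Of the 398 CCANT UMIs there, 250 lay in 1 cell, and without the top cell of each library, a setting chosen after seeing the data, the ratios were 3.33 (3.23 to 3.42) and 1.84 (1.58 to 2.08). In cluster 2, of 1926, 294 and 57 cells, the ratios were 3.52 (3.02 to 4.03) and 5.06 (4.46 to 5.65), but 1 cell held 58 of the 88 CCA UMIs and 1 cell 42 of the 44 CCANT UMIs. Without the top cells they were 2.16 (1.45 to 2.85) and, within counting error, 0.82 (-2.27 to 2.75). In cluster 5 both treated libraries were lower, with ratios of -2.43 (-2.92 to -1.95) and -2.61 (-3.04 to -2.16). Without the top cells these were -1.90 (-2.54 to -1.25) and -2.32 (-2.93 to -1.69). In cluster 4, of 97, 918 and 863 cells, the control was the highest library, at 17.1, 4.71 and 0.660 CPM. There 1 cell held 19 of the 35 control UMIs, and without the top cells the levels were 7.90, 3.73 and 0.495 CPM. Ccl2 was concentrated in the same pair of clusters, at 5.24, 41.7 and 55.1 CPM in cluster 3 and 60, 39.9 and 10.2 in cluster 7. In cluster 7, however, 1 cell held 54 of the 76 control UMIs and 1 cell 47 of the 64 CCANT UMIs. Without the top cell of each library the levels there were 17.9, 29.3 and 2.73 CPM, with CCA the highest. Within cluster 3 the log2 ratio of Ccl2 in CCA to the control was 2.99 (2.73 to 3.25), and 2.89 (2.57 to 3.21) without the top cell of each library. In CCANT 67 of the 68 Ccl2 UMIs of cluster 3 lay in 1 cell, so that no direction can be read. In each treated library the cell with most Cxcl10, with 597 UMIs in CCA and 250 in CCANT, was also the cell with most Ccl2, and lay in cluster 3. Each of these cells carried 1 of the 15 T or NK markers and 2 of the 14 microglia markers, beside a median of 0 and 1 over all MG. Cxcl12 was highest in cluster 7, at 123, 50.7 and 34.6 CPM. Cxcl16 varied less, from 61.6 to 150 CPM over clusters with at least 30 cells in a library. The cycling clusters stood at 14.4 CPM of Cxcl10 in CCA beside 65.1 in the other clusters, and at 50.4 beside 16.2 in CCANT, where 1 cell held 83 of the 132 UMIs of the cycling clusters. Without the top cell of each set the levels of CCANT were 18.9 and 11.9 CPM.

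**Figure D4:**
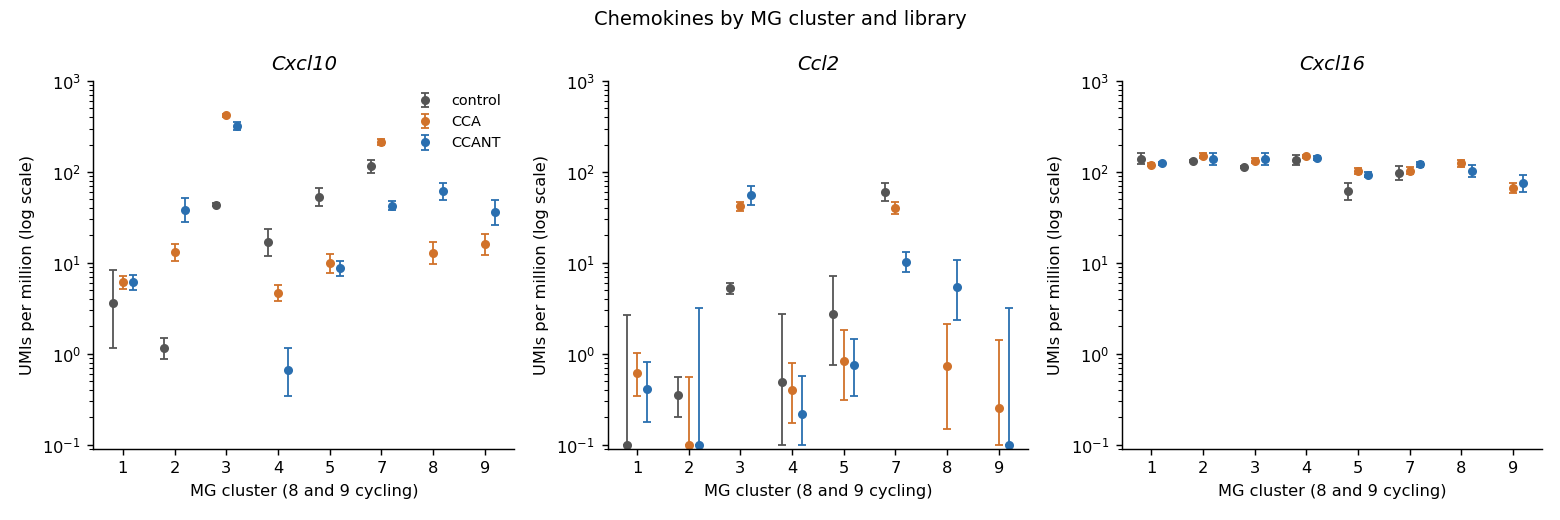
Cxcl10, Ccl2 and Cxcl16 in the MG clusters (x axis, clusters 8 and 9 cycling) as CPM on a log axis, by library, with exact 95% Poisson intervals. Levels below 0.1 are drawn at 0.1, and clusters with under 30 cells in a library are not drawn. Within the control and within CCA Ccl2 is highest in clusters 3 and 7, and within CCA so is Cxcl10. Within CCANT both are highest in cluster 3, where 1 cell held 250 of the 398 Cxcl10 UMIs and 67 of the 68 Ccl2 UMIs. Cxcl16 differs less between clusters.

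Cxcl10 also differed between kinds of MG within a library. Control MG with a GFP UMI, the transcript of the control virus, stood at 28.5 CPM and those without at 14.2, a log2 ratio of 1.01 (0.87 to 1.14). Of the 2048 Cxcl10 UMIs of control MG, 373 lay in 1 cell and 63.8% in 10 cells. The split by GFP was not computed without them, so it may rest on few cells. For Cxcl16 the order of MG with and without a GFP UMI was the opposite, at 107 and 138 CPM. In CCANT, 851 MG had Y-linked transcripts and no Xist, 1337 had the reverse, and the rest of the 2842 were left out. The former stood at 29.6 CPM of Cxcl10 and the latter at 8.60. Of the 528 UMIs of the former 250 lay in 1 cell, and without the top cell of each set the levels were 15.6 and 6.12 CPM. Cells with Y-linked transcripts and cells with Xist come from different mice. Sex therefore cannot be told apart from other differences between those mice. Between cells with Y-linked transcripts the log2 ratio of CCANT to the control was 0.43 (0.29 to 0.57), beside -0.29 in the whole libraries, but -0.20 (-0.39 to -0.02) without the top cell of each library. Between cells with Xist that of CCANT to CCA was -2.82 (-3.01 to -2.63). Of the non-cycling MG of all filtered cells, those in the series-wide table stood at 20.9, 53.7 and 15 CPM and those outside it at 27.8, 23.3 and 9.84. The 15 T or NK markers summed to 9.63, 5.72 and 5.04 CPM in MG, with 1, 2 and 2 of them at 0, and the 14 microglia markers to 75.3, 69.4 and 68.5, with 0 at 0. Leaving out the 7, 3 and 4 MG with at least 3 T or NK or 6 microglia markers gave a Cxcl10 ratio of CCA to the control of 1.47. For Ccl5 it gave -0.53 in CCA, no longer past 2-fold, and -2.64 in CCANT. The part of the GFP virus in the results was not tested.

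The microglia of the libraries were not made up alike. Of their 5 clusters, also formed without the chemokines, cluster 3 held 41.0%, 19.6% and 3.48% of microglia and cluster 1 held 13.9%, 18.8% and 47.0%. Cluster 3 was thus the largest in the control, cluster 4 in CCA (20.1%, 30.4% and 6.96%) and cluster 1 in CCANT. Clusters 1 and 4 carried Lyz2, Ms4a7 and Mrc1, genes of macrophages, cluster 2 the most P2ry12, a gene of resting microglia, and cluster 9 rod transcripts. Ccl3 was higher in CCA than in the control within each cluster, by log2 ratios of 1.70, 3.05, 2.49, 2.48 and 1.65 (clusters 1, 2, 3, 4 and 9), and Ccl4 by 2.03, 3.44, 1.73, 2.50 and 1.76. In CCANT the Ccl3 ratio was 2.65 (1.98 to 3.40) in cluster 1 and 1.44 (0.96 to 1.95) in cluster 2, and in cluster 9 it was -0.41 (-1.18 to 0.34), not beyond counting error. In the control and CCA Cxcl9 was lowest in clusters 1 and 2 and highest in clusters 4 and 9. Clusters 1 and 2 stood at 29.8, 35.1 and 11.7 and 9.96, 25.3 and 45.9 CPM and cluster 4 at 1249, 1063 and 287, so that cluster 2 was higher in CCANT than in the control, with its 25 CCANT UMIs in 1 cell. Clusters 3 and 9 held no Cxcl9 UMI in the 4 and 10 cells of CCANT, beside 389 and 2035 CPM in the control, so that the upper limits of the log2 ratio were -2.96 and -7.05. The low Cxcl10 of CCANT was found within cluster 2, at a log2 ratio of -4.91 (-6.56 to -3.65). The 4 CCANT cells of cluster 3 also stood low, at -3.36 (-5.64 to -1.80). The 10 of cluster 9 held 0 Cxcl10 UMIs beside 119 in the control, with an upper limit of -4.78. The 8 cells of cluster 4 did not differ beyond counting error, at -0.22 (-0.95 to 0.44). For Ccl5 the CCA ratio was -1.76 (-1.94 to -1.59) in cluster 3 and -1.93 (-2.12 to -1.76) in cluster 4, but 1.15 (0.72 to 1.60) in cluster 1, 0.50 (0.09 to 0.91) in cluster 2 and, not beyond counting error, -0.29 (-0.61 to 0.04) in cluster 9. The CCANT ratio of Ccl5 was below 0 in all 5 clusters, from -5.67 to -0.96.

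**Figure D5:**
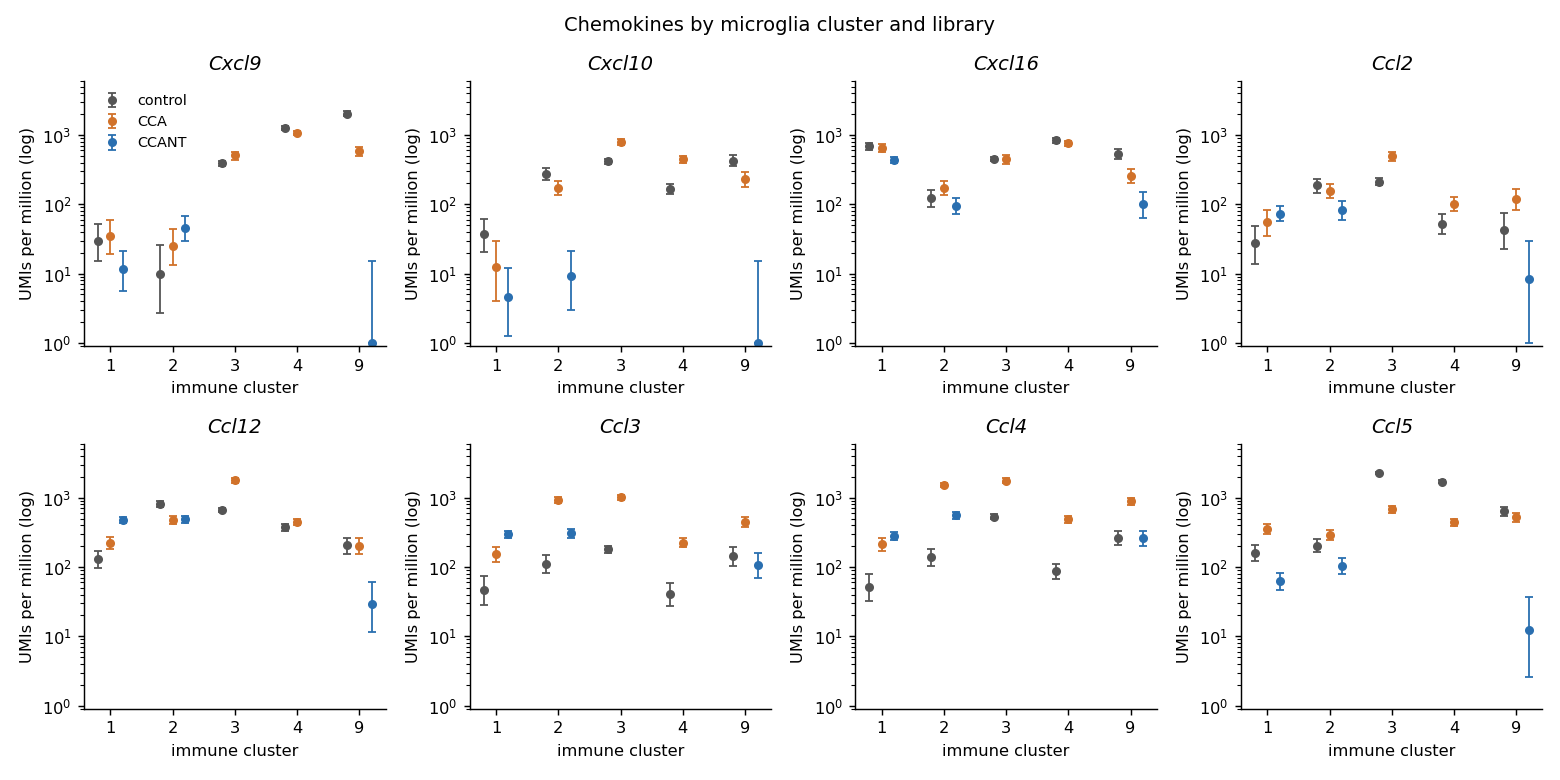
Chemokines in the 5 microglia clusters (x axis) as CPM on a log axis, by library, with exact 95% Poisson intervals. Levels below 1 are drawn at 1, and clusters with under 10 cells in a library are not drawn. Ccl3 and Ccl4 lie higher in CCA than in the control in every cluster, and Cxcl9 is high in clusters 3, 4 and 9 of the control and CCA.

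Sex could be held fixed in CCANT for cells with Y-linked transcripts and no Xist, or with Xist and no Y-linked transcripts. Of the 115 CCANT microglia 40 and 44 were such cells, and the others were left out. In the control 140 of 144 were kept. Between microglia with Y-linked transcripts (40 in CCANT, 140 in the control) the log2 ratio of CCANT to the control was -3.39 (-3.87 to -2.95) for Cxcl9, -3.03 (-3.29 to -2.77) for Ccl5 and 1.07 (0.76 to 1.37) for Ccl3. For Cxcl10 the UMIs were 2 and 638, a log2 ratio of -6.16 (-9.21 to -4.30). Between microglia with Xist (44 in CCANT, 104 in CCA) the ratio of CCANT to CCA was -3.06 (-3.59 to -2.58) for Cxcl9 and -1.02 (-1.26 to -0.78) for Ccl3. Of the 42 Cxcl9 UMIs of CCANT microglia with Y-linked transcripts 40 lay in 1 cell, and without the top cell of each library the ratio was -7.37 (-10.41 to -5.51). For Ccl2 the ratio of CCANT to the control, -0.70 in the whole libraries, was not beyond counting error in microglia with Y-linked transcripts, at 0.12 (-0.25 to 0.49). The control cells left out here included those with most Ccl2 (101 of 420 UMIs), Cxcl10 (286 of 925) and Ccl3 (86 of 375). The change from the whole libraries is therefore not one of sex alone, and the part of these cells was not tested. After thinning, microglia held a median of 3, 3 and 2 of the 10 members, and 2.08%, 1.79% and 8.70% of them held none, beside 54.0%, 55.5% and 55.1% of MG.

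The receptor of Cx3cl1, Cx3cr1, stood at 1441, 1327 and 1837 CPM in microglia. Cxcr6, the receptor of Cxcl16, stood at 341, 432 and 520 CPM in T or NK cells. Ackr3, which takes up Cxcl12, stood at 304, 283 and 142 CPM in pericytes. Of the 22 receptors listed, 11 had 50 UMIs in MG, of which 0 were past 2-fold in CCA and 1 (Cxcr5, higher) in CCANT, beside 6.43% and 6.75% of all genes. In microglia 6 had 50 UMIs, of which Ccrl2 was higher and Ccr1 and Ccr2 lower in CCA, and Ccr1 higher in CCANT, beside 3.21% and 4.90% of all genes. The same shares of all genes stand beside the counts of the other gene lists.

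Of 26 other chemokines, 8 had 50 UMIs in microglia. Cxcl13, an attractant of B cells, was higher in CCA microglia, at 186, 1740 and 110 CPM, and Ccl8 lower in both treated libraries, at 798, 170 and 234. In CCANT Pf4 was also higher and Ccl9 lower. In MG Cxcl13 was higher and Ccl8 lower of 9 counted in CCA, and Cxcl1 higher and Ccl8 lower of 7 in CCANT. The MG levels were low, at 0.148, 1.22 and 0.0985 CPM for Cxcl13 and 1.08, 0.140 and 0.361 for Ccl8. They were not set beside rods, and whether MG are their source was not tested. Of the cytokines that induce chemokines, 3 had 50 UMIs in microglia and Tnf alone was past 2-fold, in CCA, at 49.6, 107 and 61.5 CPM. Ifng, which induces Cxcl9 and Cxcl10, stood at 57.1, 79.8 and 92.9 CPM in the 56, 27 and 18 T or NK cells. No interval was computed for these levels, so no order of the libraries is read from them. Of 7 NF-kB genes, Nfkbiz was higher in CCA microglia, at 169, 399 and 224 CPM, and 0 others were past 2-fold in MG or microglia. Of the enzymes that shed or clip chemokines, Adam17 stood at 204, 241 and 211 CPM in microglia. Of the 5 enzymes with 50 UMIs in MG, Mmp2 was higher and Dpp4 lower in both treated libraries, while in CCA microglia Dpp4 was higher and Mmp2 lower and in CCANT microglia 0 of 5 were past 2-fold.

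Over 34 sums of a class in a library, compared on log2(CPM + 1) across 18325 genes, the pattern most like that of Ccl3 was that of Ccl4 (Pearson r of 0.98). The nearest to Cxcl9 was Hcar2 (0.92), to Cxcl10 Socs3 (0.84), to Ccl12 Clec5a (0.98) and to Cxcl16 Sat1 (0.96). The nearest to Cxcl12 was Lmcd1 (0.92), to Ccl5 Ptger4 (0.92), to Cx3cl1 Arhgap20 (0.92) and to Ccl2 the overlapping Gm17268 (0.94). The sums share libraries, and these values describe likeness only.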

How the data were processed

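The libraries were aligned by the authors with Cell Ranger 6.1.1 to mm10, to which tdTomato and GFP had been added, and intronic reads were included. They deposited UMI counts for each library and a series-wide table of raw counts of the cells they kept. Here cells with 2000 features or more, no more than 100000 UMIs and mitochondrial UMIs of 15% or less were clustered (leidenalg 0.10.2), with all chemokines left out, and named by markers. Clusters with markers of a further class were called mixed and left out. Cells were scored against simulated doublets, and the 5% most like them were left out as an alternative only. The naming rule and the immune resolution of 1.0 (0.5 at the outset) were set after clusters had been seen. Ratios carry exact Poisson intervals and shares exact Clopper-Pearson intervals at 95%, and levels are compared between cells, not between genes. A 0 is read against a limit of 3 counts. The calculation was tested on simulated data. All 10 members were named, other genes by level (up to 4 a list) or likeness. List genes named for being past 2-fold were chosen after their values were seen. The results of some listed genes are not reported here. Members and lists were chosen with earlier results of these data known.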

Additional observations from a re-analysis of the deposited data

Results flagged for a closer look

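Among members with at least 50 UMIs in both libraries together, in 6 cases the ratio of a treated library to the control went one way in MG and the other way in another class, beyond counting error in both. The difference between the classes was not tested, since each group is 1 library. Cxcl12 was lower in MG and higher in astrocytes in both treated libraries. Its log2 ratio in CCA was -0.74 (-0.84 to -0.63) in MG and 0.57 (0.36 to 0.79) in astrocytes, and in CCANT -0.59 (-0.71 to -0.48) and 0.68 (0.50 to 0.87). The control astrocytes were 15 cells. Cxcl16 in CCA had a log2 ratio of 0.05 (0.01 to 0.08) in MG, -0.81 (-1.58 to -0.07) in astrocytes and -0.61 (-1.23 to -0.02) in retinal ganglion cells, and in MG it was -0.02 over MG of all filtered cells. Ccl4 in CCANT had -0.86 (-1.78 to -0.01) in MG, where its level was below that of rods, and 0.40 (0.26 to 0.55) in microglia. Over MG of all filtered cells the Ccl4 ratio was -0.30 (-0.93 to 0.31), not beyond counting error. Of the 45 control UMIs in MG, 4 lay in the cell with 12 T or NK markers. Ccl5 in CCA had -1.23 (-1.39 to -1.08) in MG and 6.32 (4.40 to 9.41) in the 10 B or plasma cells, beside 32 in the control.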

How the results depend on the processing

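In MG the count of members past 2-fold in CCA fell from 4 to 2 (Ccl3 and Ccl4) over MG of all filtered cells, which changes the tdTomato filter and the clustering together. In CCANT it rose from 1 to 2 without the cell with most UMIs of each member and over MG of all filtered cells (Cxcl9 and Ccl5), and to 3 without the 10 cells with most UMIs (Cxcl9, Ccl5 and Ccl12), an alternative chosen after seeing the data. Only 9 CCANT MG had a Cxcl9 UMI, so that its loss there follows from the setting, which also takes 50.0% of the Ccl12 UMIs of CCANT MG and 17.7% of those of the control. The counts in microglia stayed at 3 to 4 in CCA and 4 to 6 in CCANT. No ratio past 2-fold changed sign over these alternatives. MG outside the series-wide table taken alone, in which control stood above CCA for Cxcl10 and Ccl2, were not among them. Over the alternatives the log2 ratio of CCA to the control ran from 0.89 to 2.06 for Cxcl10, 0.00 to 1.77 for Ccl2 and -1.75 to -0.41 for Ccl5 in MG, where the ends nearest 0 came over MG of all filtered cells (Cxcl10 and Ccl2) and with the cycling MG left out (Ccl5). In microglia it ran from 2.00 to 2.83 for Ccl3, 1.59 to 2.51 for Ccl4 and -2.29 to -0.02 for Cxcl9. That of CCANT ran from -4.56 to -3.19 for Cxcl9, -6.16 to -2.74 for Cxcl10 and 0.85 to 1.84 for Ccl3. Among classes of at least 30 cells in a library, the class with the highest level was the same for 29 of 30 pairs of member and library with a gate on markers and with 500 features as the minimum. That limit leaves out T or NK cells of CCA and CCANT and endothelial cells of the control. Under it microglia led Ccl5 in CCA and CCANT and pericytes led Cxcl12 in the control, so the count does not cover the higher levels of the classes left out. The cause of these changes was not tested. No paired analysis was possible because each group is 1 library. At this depth Ccl3, Ccl4 and Ccl12 in MG, Cxcl9 in those of the control and CCA, Ccl5 in those of CCANT and Cx3cl1 in those of the control were not above rods.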
